A study of Mus musculus with 5 samples.

Results

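The Wnt ligands are a family of secreted, lipid-modified glycoproteins. The 10 described here are Wnt2, Wnt2b, Wnt3, Wnt4, Wnt5a, Wnt5b, Wnt7a, Wnt7b, Wnt9a and Wnt10a, found by gene symbol among 55385 genes with a count, of which 19 are Wnt ligands. They were chosen by measured values, since Wnt3 was higher in both libraries taken 4 h after seizure onset than in the control. For these 10 genes the comparison of 4 h with the control is therefore given as values, with no test.

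Total RNA of the mouse hippocampus was sequenced after seizures caused by kainic acid, an agonist of a class of glutamate receptors. All animals were male C57/bl6 mice aged 3 months. There were 5 libraries in 4 groups: 1 from untreated animals (the control), and 1, 2 and 1 taken at 1 h, 4 h and 8 h after seizure onset, following 20 mg/kg kainic acid given intraperitoneally. The control is labelled as untreated, the sources used do not state the number of mice per library, and nothing says whether the 4 h libraries, replicates 1 and 2, came from separate mice. If they did not, p-values measure technical spread between those libraries. Counts on genes summed to 19100374 in the control, 17744508 at 1 h, 18250114 and 19109204 in replicates 1 and 2 at 4 h, and 16612225 at 8 h.

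Wnt ligands are acylated by Porcn and carried to the cell surface by Wls, and they bind Frizzled receptors. With the co-receptors Lrp5 or Lrp6 they stabilise beta-catenin, which acts on transcription through TCF/LEF factors, while other ligands and receptors signal through planar cell polarity or calcium. In the hippocampus the family is known for roles in dendrite and synapse formation and in neurogenesis of the dentate gyrus.

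Levels are normalized CPM, the count divided by the library total in units of 1000000 after scaling by the trimmed mean of M-values (TMM). Bracketed intervals are exact 95% intervals, Poisson for 1 count and binomial for a ratio of 2 counts, and cover counting error only. Apart from the pair at 4 h there was no replicate of any group.

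The libraries were first compared by marker genes, and replicate 1 at 4 h stood apart. The summed level of 6 choroid plexus markers, a tissue next to the hippocampus, was 4009 CPM in the control, 1698 at 1 h, 30.1 and 4284 in replicates 1 and 2 at 4 h, and 3102 at 8 h. Ttr was the most abundant of these markers in each of the 5 libraries, and none of the 6 was at 0. Thus choroid plexus transcripts were nearly missing from replicate 1 and below the control in the 1 h library as well. The sum of 6 thalamus markers (Prkcd, Tnnt1, Slc17a6, Ramp3, Lef1 and Tcf7l2) was 70.8 CPM in the control, 79.8 at 1 h, 360 and 139 in replicates 1 and 2 at 4 h, and 60.8 at 8 h. In replicate 1 all 6 were above the control and in replicate 2 it was 5 of 6, with Prkcd the most abundant in both, and none of the 6 was at 0 in any library, the control included. Without Lef1 and Tcf7l2, which also belong to the Wnt pathway lists, the sum was 5.25 times the control in replicate 1 and 2.04 times in replicate 2.

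**Figure D1:**
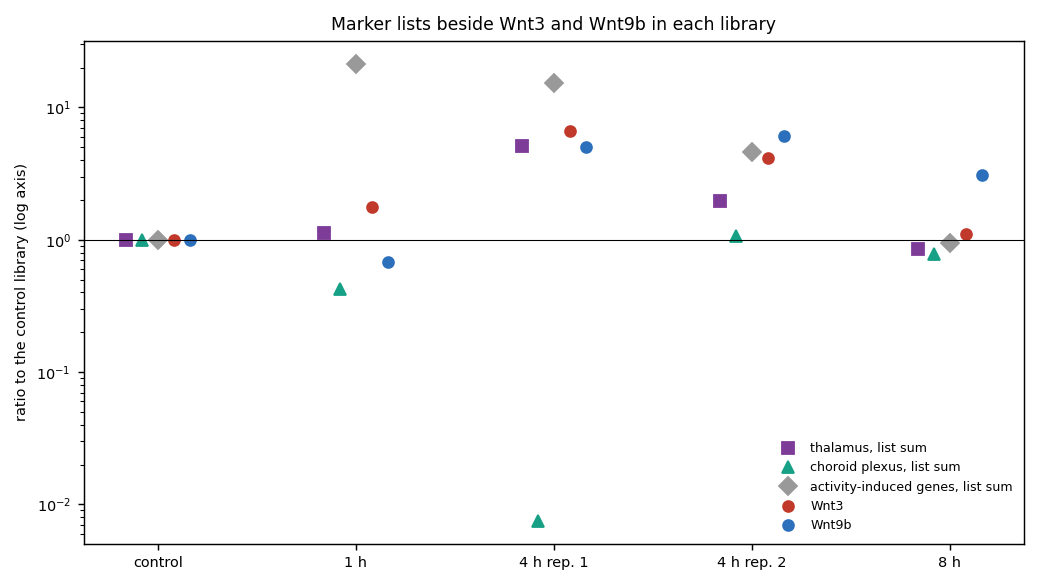
Ratio to the control (log axis) of the summed CPM of 6 thalamus markers, 6 choroid plexus markers and 7 activity-induced genes, and of the CPM of Wnt3 and Wnt9b, in each of the 5 libraries. The thalamus sum is above 1 in both 4 h libraries, and the choroid plexus sum falls to 0.0075 in replicate 1.

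Of 7 activity-induced genes, all were at least 1.5-fold above the control at 1 h and in replicate 1 at 4 h, and 3 (Fos, Fosb and Arc) in replicate 2. The summed level of the 7 (Fos, Fosb, Junb, Egr1, Arc, Npas4 and Nr4a1) was 255.0 CPM in the control, 5466 at 1 h, 3904 and 1167 in replicates 1 and 2 at 4 h, and 242 at 8 h. The 4 h libraries thus differed 3.35-fold from each other in this sum, of which Arc made up 2593 CPM in replicate 1 and 928 in replicate 2. Egr1, Npas4 and Nr4a1 were at 1.06, 1.25 and 1.02 times the control in replicate 2. Hippocampal neuron markers were present in every library, with summed levels of 4 pyramidal cell markers between 288 and 369 CPM and of 4 dentate granule cell markers between 146 and 205 CPM.

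In the control the ligands spanned a wide range of levels. Per kb of exon, which allows genes to be compared, Wnt7b had the highest level of the 10, with 7.31 CPM per kb [6.79 to 7.87], followed by Wnt7a with 4.40 [3.90 to 4.95] and Wnt4 with 2.49 [2.16 to 2.85]. Wnt2 (1.83 CPM per kb), Wnt9a (1.75), Wnt5a (1.37), Wnt10a (1.08), Wnt5b (0.738) and Wnt3 (0.474) came next, and Wnt2b was the lowest with 0.0837. From Wnt4 down to Wnt3 the intervals of neighbours in this order overlapped, while Wnt7b and Wnt7a stood apart from the gene after each, and Wnt2b from Wnt3. Among the 19 Wnt ligands Wnt3 held place 9 in the control, 8 at 1 h, 2 and 4 in replicates 1 and 2 at 4 h, and 8 at 8 h.

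**Figure D2:**
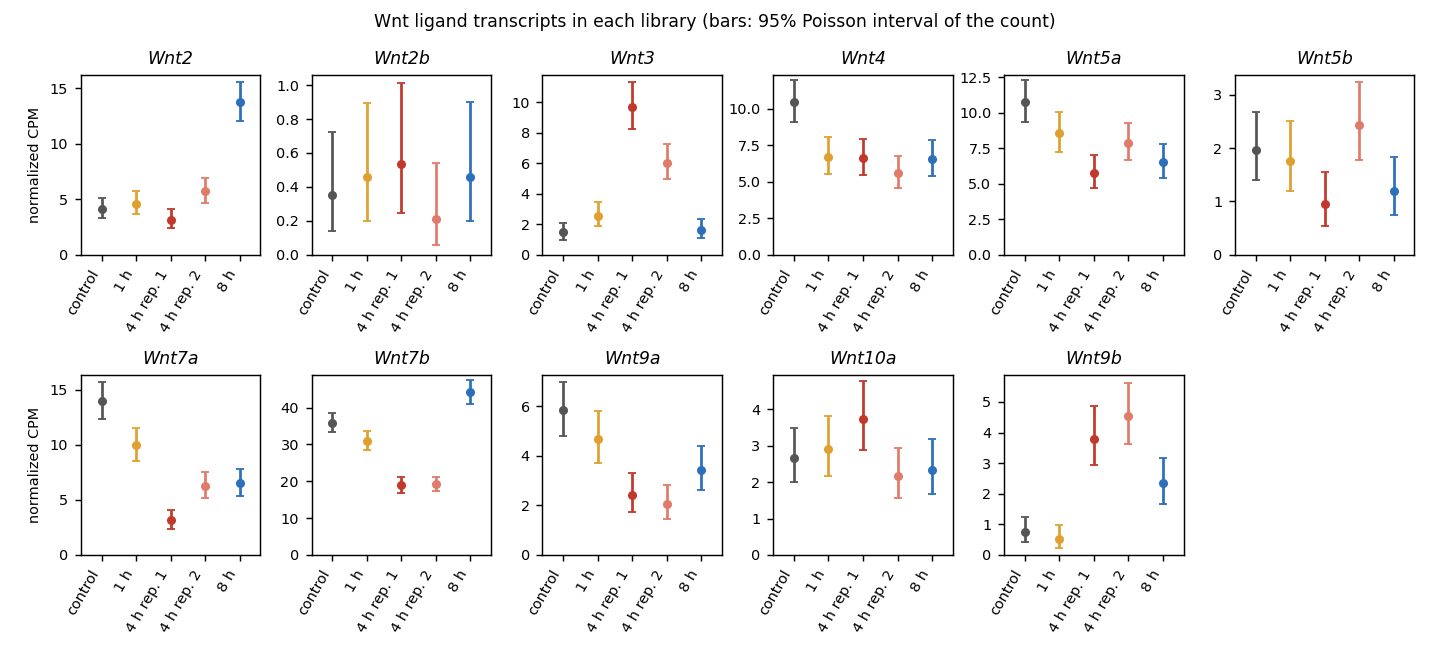
Normalized CPM (linear axis from 0) of the 10 Wnt ligands and of Wnt9b in each library, with the exact 95% Poisson interval of the count as bars. Wnt3 and Wnt9b are highest in the 4 h libraries, Wnt2 at 8 h, and Wnt4, Wnt7a and Wnt9a in the control.

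Wnt3, a ligand of the beta-catenin branch that is known to promote neurogenesis in the adult dentate gyrus, lies at chr11:103774150-103817957 on the plus strand (GRCm38). Its level was 1.46 CPM in the control (29 counts), 2.56 at 1 h, 9.68 and 6.03 in replicates 1 and 2 at 4 h, and 1.60 at 8 h (28 counts). The 4 h libraries were the highest, and the 8 h library was back near the control. Against the control, the ratio was 6.64 [4.46 to 10.2] in replicate 1 and 4.14 [2.73 to 6.45] in replicate 2, the values for which Wnt3 was chosen, and the replicates differed 1.61-fold [1.26 to 2.06].

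At the other times Wnt3 was 1.76 times the control at 1 h [1.08 to 2.91] and 1.10 times at 8 h [0.628 to 1.91]. These ratios divide by the control count that the choice used, so a control low by chance would raise them as well. The edgeR quasi-likelihood test, which takes the single libraries to vary like the 4 h pair, put the log2 fold change at 0.77 (SE 0.56, unadjusted p = 0.204) at 1 h. At 8 h it was 0.12 (SE 0.58) with an unadjusted p of 0.827. After Benjamini-Hochberg adjustment over 19768 genes tested neither passed 0.05. The difference of 8 h minus 1 h, which leaves the control out, was -0.65 on the log2 scale (unadjusted p = 0.278, adjusted p = 0.931). Thalamus markers moved with Wnt3 at 4 h: their sum was 5.08 and 1.97 times the control in replicates 1 and 2, 1.13 times at 1 h and 0.858 times at 8 h. Their part in the higher Wnt3 was not tested, and a change in the number of cells cannot be told apart from a change in RNA per cell in tissue samples.

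Wnt9b, a ligand outside the 10 that is known from kidney development, is the nearest gene to Wnt3 by start site. It lies at chr11:103727364-103749821 on the minus strand, so that both genes point away from each other, with 24.33 kb and 0 annotated genes between their starts. Wnt9b had 0.754 CPM in the control (15 counts), 0.512 at 1 h (9 counts), 3.80 and 4.55 in replicates 1 and 2 at 4 h (64 and 86 counts), and 2.34 at 8 h (41 counts). Both 4 h libraries were above the control, by 5.04-fold [2.84 to 9.53] and 6.03-fold [3.46 to 11.2], and the 8 h library was still above it, by 3.10-fold [1.68 to 6.04]. In the edgeR quasi-likelihood test the log2 fold change was 2.31 (SE 0.53, unadjusted p = 0.00455, adjusted p = 0.278) at 4 h and 1.5 (SE 0.58, unadjusted p = 0.0335, adjusted p = 1.00) at 8 h, so neither passed after adjustment. Without the filter on low counts, far more genes were called at 4 h than with it, as given in the closing section. In that setting the adjusted p of Wnt9b at 4 h was 0.00253, and under the other settings it lay between 0.1001 and 0.343. At 1 h it was -0.47 (SE 0.65, unadjusted p = 0.426).

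Both genes were thus high at 4 h, and at 8 h Wnt3 was near the control while Wnt9b was not. Between the 4 h libraries Wnt3 was higher in replicate 1, whereas for Wnt9b the ratio of replicate 1 to replicate 2 was 0.836 [0.595 to 1.17], with thalamus markers at 2.58. No test was made of the difference between Wnt3 and Wnt9b.

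Since both genes were high together, their promoters are shown, as RefSeq gives them on GRCm38.p6, from 250 bases before to 50 bases after the start, 5′ to 3′ on the strand of the gene. Capitals mark the 50 bases after the start, which for Wnt3 lies 25 bases inside the gene as given above from GENCODE and for Wnt9b at the same base. The windows are chr11:103773925-103774224 for Wnt3 and chr11:103749772-103750071 for Wnt9b.
Wnt3: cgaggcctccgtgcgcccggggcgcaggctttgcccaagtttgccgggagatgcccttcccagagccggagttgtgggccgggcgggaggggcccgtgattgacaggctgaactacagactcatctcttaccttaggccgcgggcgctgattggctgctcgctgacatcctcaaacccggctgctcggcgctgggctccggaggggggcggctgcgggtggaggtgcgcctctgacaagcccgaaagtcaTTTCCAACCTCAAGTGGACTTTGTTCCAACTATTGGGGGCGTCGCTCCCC
Wnt9b: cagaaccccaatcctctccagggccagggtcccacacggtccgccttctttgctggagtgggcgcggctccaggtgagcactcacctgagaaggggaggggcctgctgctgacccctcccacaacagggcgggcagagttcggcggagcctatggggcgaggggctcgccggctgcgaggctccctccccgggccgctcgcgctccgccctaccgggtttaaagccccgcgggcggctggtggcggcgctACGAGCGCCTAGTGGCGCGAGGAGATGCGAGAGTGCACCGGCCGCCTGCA
The search covered both strands for the cAMP response element TGACGTCA and its core TGACG, the AP-1 element TGANTCA, the TCF/LEF element CTTTGAT and the EGR element GCGTGGGCG. The core is part of the full cAMP element. Except for N, which stands for any base, only these exact letters counted, and variants of the elements were not sought. None of these 5 runs of letters is in either window, and among 32851 promoters of the same length they are in 1.79%, 20.8%, 7.81%, 3.73% and 0.612%, in that order. Of the 10 ligands, 7 had a promoter in the table (Wnt5b with 3 starts), and Wnt5a, Wnt7b and Wnt10a had none. Among their 9 windows 1 of Wnt5b held the AP-1 letters and another of Wnt5b the TCF/LEF letters. The share of G and C was 65.7% for Wnt3 and 71.7% for Wnt9b, against a median of 52.7% over all promoters, and reached 84.3% for Wnt4.

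Other genes within 250 kb of the Wnt3 start were read for comparison. Arf2, a small GTPase gene whose start is 193 kb away, had 46.9 CPM in the control, 56.8 at 1 h, 109.7 and 91.1 in replicates 1 and 2 at 4 h, and 43.1 at 8 h. It was thus about as high as the control at 8 h and higher in both 4 h libraries, with a log2 fold change at 4 h of 1.10 (SE 0.21, edgeR adjusted p = 0.259). Nsf, a gene for a vesicle fusion ATPase that starts 180 kb from Wnt3, had between 1057 and 1084 CPM in all 5 libraries. Gosr2 and Rprml, on the side of Wnt9b, had log2 fold changes at 4 h of 0.40 (SE 0.17) and 0.70 (SE 0.24). Their edgeR adjusted p was 0.444 and 0.395. On few counts (18 in the control), Gm8738 was at 2.69 and 1.99 times the control in replicates 1 and 2 at 4 h. C130046K22Rik was at 1.77 and 1.37 times, on 10 counts in the control, and Gm11642 at 1.97 and 1.40 times, on 9.

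**Figure D3:**
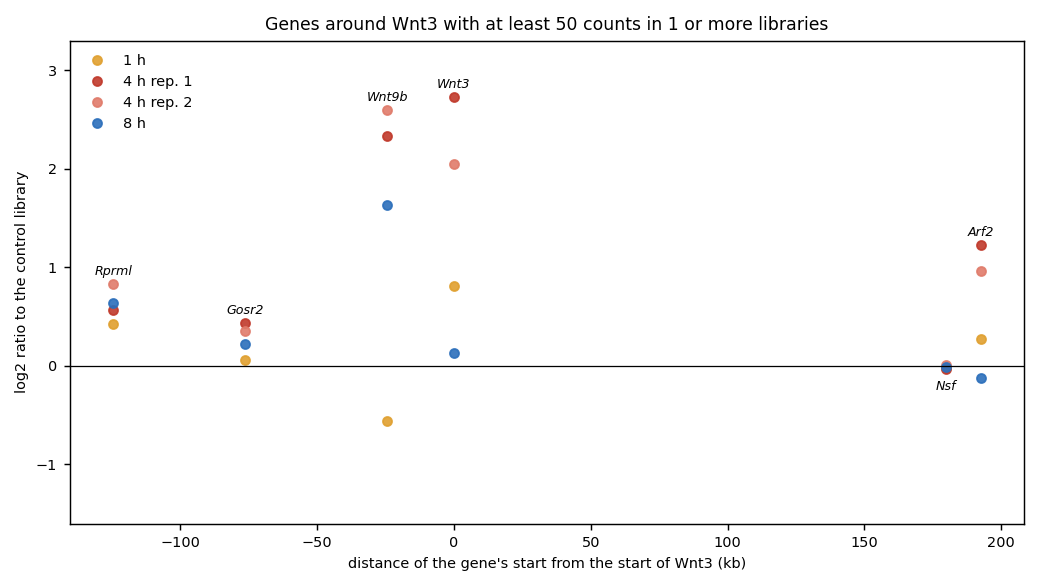
Log2 ratio to the control in each kainic acid library for genes around Wnt3 with at least 50 counts in 1 or more libraries, by the distance of their start from that of Wnt3 in kb. Wnt9b and Wnt3 have the highest 4 h values, Arf2 is above 0 at 4 h, and Nsf lies at 0 in all 4 libraries.

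Of the other 9 ligands, 5 (Wnt4, Wnt5a, Wnt7a, Wnt7b and Wnt9a) were below the 1 control library in both 4 h libraries, and 4 (Wnt2, Wnt2b, Wnt5b and Wnt10a) lay on opposite sides of it. Wnt7a, a ligand known to act on synapses and dendrites, lies at chr6:91363981-91411363. Its level was 14.0 CPM in the control, 9.96 at 1 h, 3.15 and 6.29 in replicates 1 and 2 at 4 h, and 6.50 at 8 h. Each kainic acid library was below the control, at 4 h at ratios of 0.225 [0.165 to 0.303] and 0.451 [0.360 to 0.560], and at 8 h at 0.466 [0.371 to 0.581]. Its log2 fold change was -0.48 (SE 0.53, unadjusted p = 0.394) at 1 h and -1.09 (SE 0.54, unadjusted p = 0.0907) at 8 h.

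Wnt7b, known for dendrite growth in hippocampal neurons, lies at chr15:85535437-85582473. Its level was 35.8 CPM in the control, 31.1 at 1 h, 18.9 and 19.2 in replicates 1 and 2 at 4 h, and 44.2 at 8 h. The pair at 4 h lay close together, both near 0.53 of the control (0.527 and 0.536), and the 8 h library was above the control, at a ratio of 1.23 [1.11 to 1.37]. Wnt7b had a fitted log2 difference from the control at 8 h of 0.30 (SE 0.24, unadjusted p = 0.259). Over 6.62% of the exon length of Wnt7b an antisense exon of AU022754 is annotated, and the strand setting of the counting was not stated in any source used.

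Wnt9a, known from joint formation, lies at chr11:59306928-59333552 and had 5.83 CPM in the control, 4.67 at 1 h, 2.44 and 2.06 in replicates 1 and 2 at 4 h, and 3.42 at 8 h. The 4 h libraries were the lowest, at 0.418 [0.285 to 0.601] and 0.354 [0.240 to 0.513] of the control, and at 8 h the ratio was 0.587 [0.423 to 0.809]. Wnt4, known from kidney and gonad development, lies at chr4:137277489-137299726 and had 10.5 CPM in the control, 6.71 at 1 h, 6.59 and 5.61 in replicates 1 and 2 at 4 h, and 6.56 at 8 h. All 4 kainic acid libraries of Wnt4 were thus alike and below the control, with ratios between 0.536 and 0.642. For Wnt4 the log2 fold change was -0.63 (SE 0.37, unadjusted p = 0.141) at 1 h and -0.66 (SE 0.37, unadjusted p = 0.13) at 8 h.

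Wnt5a, the classic ligand of the branch without beta-catenin, lies at chr14:28504750-28527448 and had 10.8 CPM in the control, 8.53 at 1 h, 5.76 and 7.88 in replicates 1 and 2 at 4 h, and 6.50 at 8 h. It was below the control in all 4 kainic acid libraries, at ratios of 0.536 [0.417 to 0.684] and 0.733 [0.591 to 0.908] at 4 h. For Wnt5a the antisense overlap, with Gm2670, is 4.58% of exon length. Wnt5b, its paralog at chr6:119432531-119544347, had 1.96 CPM in the control, 1.76 at 1 h, 0.95 and 2.43 in replicates 1 and 2 at 4 h, and 1.20 at 8 h. The 4 h libraries of Wnt5b lay on opposite sides of the control, and replicate 1 was at 0.391 of replicate 2 [0.206 to 0.703].

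Wnt2, known to stimulate dendrite growth and lying at chr6:17988940-18030585, had its highest level at 8 h. It had 4.12 CPM in the control (82 counts), 4.61 at 1 h, 3.15 and 5.71 in replicates 1 and 2 at 4 h, and 13.7 at 8 h (241 counts). The 8 h library was above the other 4, at 3.34 times the control [2.59 to 4.34], and the 4 h libraries lay on opposite sides of the control. In the edgeR quasi-likelihood test its log2 fold change was 1.71 (SE 0.53, unadjusted p = 0.0194, adjusted p = 1.00) at 8 h, where there is 1 library, and it did not pass. Without the filter on low counts, far more genes were called at 8 h than with it, as given in the closing section. In that setting the adjusted p of Wnt2 was 0.0378, and under the other settings it lay between 0.532 and 1. The direct test of 8 h against 1 h gave a log2 difference of 1.55 (unadjusted p = 0.0276, adjusted p = 0.817), the smallest p of the 9 ligands tested, and the other 8 had unadjusted p between 0.0841 and 0.932.

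Wnt10a, known from teeth and skin appendages, at chr1:74791516-74804179, had 2.66 CPM in the control, 2.90 at 1 h, 3.74 and 2.17 in replicates 1 and 2 at 4 h, and 2.34 at 8 h. Every ratio interval of Wnt10a against the control held 1. Wnt2b, at chr3:104945272-104961921, had 7 counts in the control, 8 at 1 h, 9 and 4 in replicates 1 and 2 at 4 h, and 8 at 8 h. It was the 1 member of the 10 that did not pass the filter on low counts, and a difference was not detectable at this depth.

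**Figure D4:**
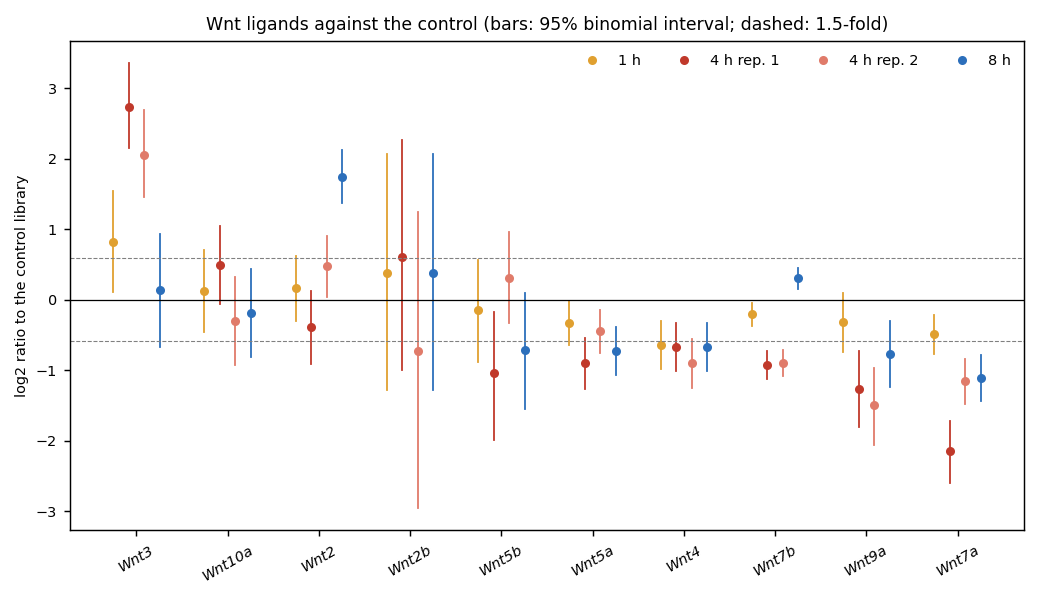
Log2 ratio to the control library of the 10 Wnt ligands in each kainic acid library, with exact 95% binomial intervals as bars, ordered by the mean of the 4 h values. Wnt3 is the 1 gene above the upper 1.5-fold line in both 4 h libraries, and Wnt4, Wnt7b, Wnt9a and Wnt7a are below the lower line in both.

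By a rule of at least 1.5-fold against the control in every library of a time, 1 of the 10 ligands was higher (Wnt3) and 1 lower (Wnt4) at 1 h, where 10.9% of all genes tested were higher and 9.2% lower. At 4 h 1 was higher (Wnt3, on which the choice was made) and 4 lower (Wnt4, Wnt7a, Wnt7b and Wnt9a), against 10.1% and 6.28% of all genes tested. Replicate 1 alone had 2 higher and 6 lower (all genes tested: 21.1% and 16.8%), and replicate 2 alone had 1 higher and 5 lower (13.8% and 10.7%). Wnt2b, which did not pass the filter on low counts, was 1 of the 2 higher in replicate 1 and 1 of the 5 lower in replicate 2, on 9 and 4 counts against 7, so that without it the counts were 1 and 6, and 1 and 4. At 8 h 1 was higher (Wnt2) and 5 lower (Wnt4, Wnt5a, Wnt5b, Wnt7a and Wnt9a), against 14.1% and 8.94%. The 3 comparisons share 1 control library. With 2-fold in place of 1.5-fold, the ligands higher and lower were 0 and 0 at 1 h, 1 and 2 at 4 h, and 1 and 1 at 8 h. No share of all genes tested was taken at 2-fold, so these counts have no background beside them. The summed level of the 10 was 87.4 CPM in the control, 73.2 at 1 h, 54.9 and 57.6 in replicates 1 and 2 at 4 h, and 86.5 at 8 h. Wnt7b was the largest part of that sum in each library.

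In the tests at 1 h and 8 h, set against the same control library as the choice, none of the 9 ligands tested passed an adjusted p of 0.05 in edgeR or in DESeq2. Over all genes edgeR called 0 of 19768 at 1 h (0%), 1 at 4 h (0.00506%) and 0 at 8 h (0%). DESeq2, over the genes it gave an adjusted p, called 50 of 16232 (0.308%), 234 of 14329 (1.63%) and 33 of 17502 (0.189%). The 1 gene at 4 h, ETV3L, was looked up after its values were seen, and its counts were 1 in the control, 2 at 1 h, 963 and 982 in the 4 h libraries and 365 at 8 h. At an unadjusted p under 0.05 the edgeR counts were 478 (2.42%), 2291 (11.6%) and 892 (4.51%), and of the ligands it was 0 at 1 h and 1 at 8 h (Wnt2). Unadjusted p of the ligands lay between 0.141 and 0.854 at 1 h, and between 0.0194 and 0.827 at 8 h. Over these 9 the median log2 fold change at 1 h, 4 h and 8 h was -0.21, -0.65 and -0.66, beside -0.01, 0.01 and 0.01 over all genes tested.

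Of the other 9 Wnt ligands, 4 passed the filter. Besides Wnt9b, Wnt16 had 18 counts in the control, 5 at 1 h, 15 and 28 in replicates 1 and 2 at 4 h, and 7 at 8 h. Wnt11, Wnt10b, Wnt6 and Wnt8b had at most 15 counts in any library. Wnt3a and Wnt1 had at most 2 and 1, and Wnt8a had 0 in all 5, with an exact upper limit of 0.185 CPM in the control. Wnt9a and Wnt3a, like Wnt3 and Wnt9b, start back to back on chromosome 11, with 16.18 kb between them, and there Wnt3a was at or under the floor of 3 counts in every library.

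The other genes of the pathway, 79 with the 9 further ligands, were read from lists of known components. Of these, 68 passed the filter, and edgeR called 0 of them at each time, as did DESeq2. At an unadjusted p under 0.05 there were 2 of 68 at 1 h (1 higher), 8 at 4 h (4 higher) and 6 at 8 h (2 higher), beside the shares of all genes given above. By the 1.5-fold rule 3 of these 68 were higher and 10 lower at 1 h, beside 10.9% and 9.2% of all genes tested. At 4 h it was 6 and 7, beside 10.1% and 6.28%, and at 8 h 7 and 11, beside 14.1% and 8.94%. Replicate 1 alone had 14 higher and 16 lower (21.1% and 16.8% of all genes tested), and replicate 2 alone had 8 and 9 (13.8% and 10.7%). With the genes below the filter, some of them on 0 to 2 counts, 5 of 79 were higher and 12 lower at 1 h, 7 and 8 at 4 h, and 7 and 13 at 8 h. The shares of all genes cover only those past the filter, so no background stands beside these counts. The median log2 fold change was -0.06, -0.06 and -0.13.

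**Figure D5:**
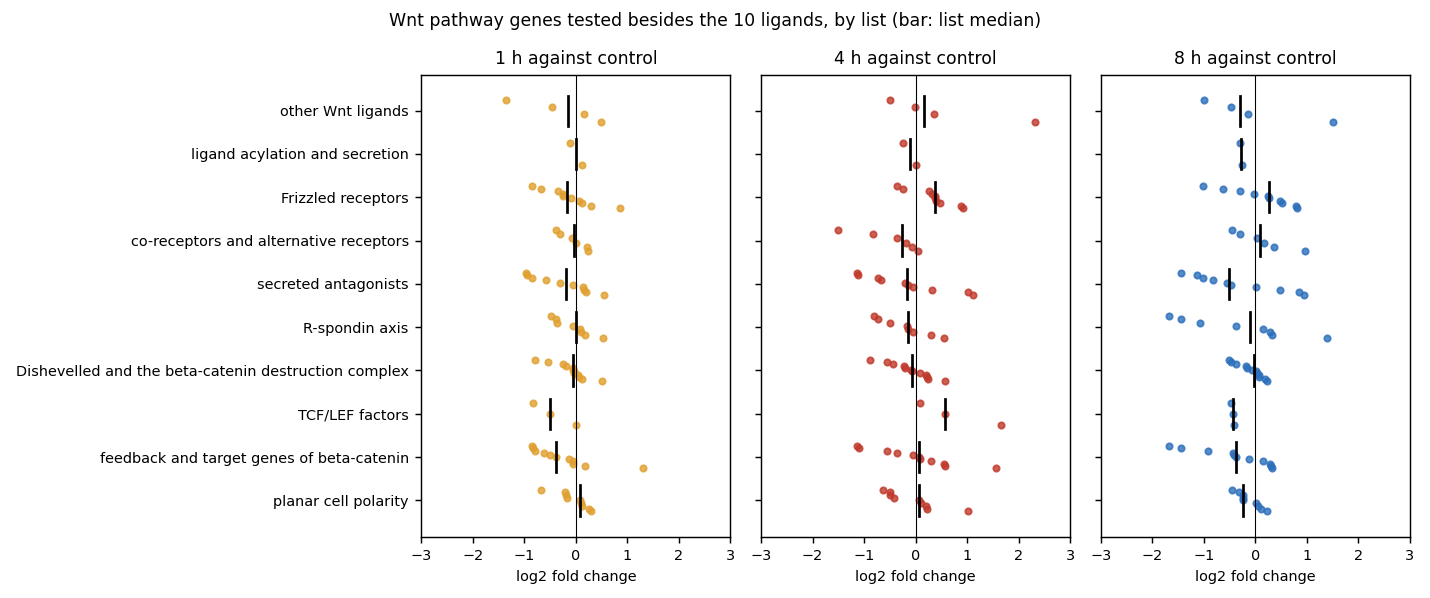
Log2 fold change (edgeR) of each Wnt pathway gene tested, without the 10 ligands, at 1 h, 4 h and 8 h against the control, by list, with the median of the list as a black bar. List medians lie between -0.51 and 0.56, and the highest of these points at 4 h is Wnt9b.

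Ligand processing and receptors came first. Porcn, the acyltransferase, and Wls, the carrier, had log2 fold changes at 4 h of -0.24 (SE 0.19) and 0.02 (SE 0.21), and Wls was below 0 when scaled by library size alone (-0.10). Among 10 Frizzled receptors, with a median of 0.38 at 4 h, Fzd8 had 4.77 CPM in the control, 2.96 at 1 h, 8.43 and 9.89 in replicates 1 and 2 at 4 h, and 8.33 at 8 h. Its log2 fold change at 4 h was 0.93 (SE 0.34, unadjusted p = 0.0364, edgeR adjusted p = 0.404), and those of Fzd5 and Fzd3 were 0.39 and 0.38. Of 6 co-receptors and alternative receptors, Ror1, a receptor for Wnt5a, had 6.83 CPM in the control, 7.97 at 1 h, 3.15 and 4.44 in replicates 1 and 2 at 4 h, and 13.5 at 8 h. Ptk7 and Lrp5 had log2 fold changes at 4 h of -0.36 and -0.19.

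Of the 13 secreted antagonists, 10 passed the filter, and those named by the rule, which asks for 50 counts, were Sostdc1, Sfrp1 and Frzb. Sostdc1 had 13.1 CPM in the control, 6.66 at 1 h, 0.713 and 11.1 in replicates 1 and 2 at 4 h, and 8.90 at 8 h. Sfrp1 had 8.69, 5.80, 2.26, 8.46 and 4.85 in the same order. Both were lowest in replicate 1, as were the choroid plexus markers (30.1 CPM there and 4284 in replicate 2), and the part of these markers was not tested. Frzb was below the control in both 4 h libraries, with log2 fold changes of -0.74 (SE 0.31) there and -1.13 (SE 0.38, unadjusted p = 0.0264, edgeR adjusted p = 1.00) at 8 h. Under 50 counts, and looked up after their values were seen, Notum was at 0.478 and 0.381 of the control in replicates 1 and 2 at 4 h, Sfrp2, with 6 counts in the control, at 2.96 and 2.28 times, and Wif1, with 14, at 2.36 and 2.03 times.

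The 4 R-spondins raise the number of Frizzled receptors at the surface, and their values at 8 h differed. Rspo1 had 20 counts in the control and 22 at 8 h, and Rspo4 had 0 in both. Rspo2 had 21.8 CPM in the control, 17 at 1 h, 12.5 and 12.4 in replicates 1 and 2 at 4 h, and 10.3 at 8 h. Every kainic acid library of Rspo2 was thus below the control, with log2 fold changes of -0.80 (SE 0.24, edgeR adjusted p = 0.356) at 4 h and -1.08 (SE 0.29, adjusted p = 0.965) at 8 h. Rspo3 had a log2 fold change of -1.45 (SE 0.43, unadjusted p = 0.0173) at 8 h. With the strand setting unknown, exons on the opposite strand overlap 13.07% of the exon length of Rspo3, and among other pathway genes named here 38.12% of Notum, 17.83% of Fzd5, 16.12% of Sfrp2 and 13.75% of Lef1. In the 8 h library the R-spondin receptors Lgr5 and Lgr6 lay on opposite sides of the control, and neither passed after adjustment. The difference between them was not tested. Lgr5 had 34 counts in the control, 62 and 28 in replicates 1 and 2 at 4 h and 8 at 8 h (unadjusted p = 0.0853 at 8 h), and Lgr6 had 40, 25, 39 and 96 in the same order (unadjusted p = 0.0388, adjusted p = 1.00).

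Inside the cell, 12 genes of Dishevelled and the beta-catenin destruction complex had a median log2 fold change of -0.08 at 4 h. Apc2, a brain homologue of Apc, had 118 CPM in the control, 103.6 at 1 h, 63.3 and 65.2 in replicates 1 and 2 at 4 h, and 83.1 at 8 h. Its log2 fold change at 4 h was -0.88 (SE 0.16, unadjusted p = 0.00208, edgeR adjusted p = 0.259). Csnk1a1 was at 0.58 (SE 0.16, adjusted p = 0.348) at 4 h. Axin2, a direct target and feedback inhibitor of beta-catenin signalling, had 21.6 CPM in the control, 12.3 at 1 h, 14.7 and 14.5 in replicates 1 and 2 at 4 h, and 16.5 at 8 h. The control of Axin2 was the highest of the 5 libraries, with log2 fold changes of -0.80 (SE 0.28, unadjusted p = 0.0326) at 1 h and -0.56 (SE 0.24, unadjusted p = 0.0604) at 4 h.

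Of 4 TCF/LEF factors 3 were tested. Tcf7l2 had 2.66 CPM in the control, 2.67 at 1 h, 13.1 and 4.18 in replicates 1 and 2 at 4 h, and 1.88 at 8 h, and Lef1 had 3.52, 2.45, 7.31, 3.23 and 2.57. Both were highest in replicate 1 and both are among the thalamus markers, whose part was not tested. Of 12 feedback and target genes, Myc had 1.86 CPM in the control, 4.78 at 1 h, 7.66 and 3.81 in replicates 1 and 2 at 4 h, and 2.28 at 8 h, and Nkd2, an inhibitor of Dishevelled, had a log2 fold change of -1.10 (SE 0.36, adjusted p = 0.370) at 4 h. Of 9 planar cell polarity genes the log2 fold changes at 4 h were 1.02 (SE 0.51) for Vangl1, -0.63 (SE 0.46) for Celsr1 and -0.50 (SE 0.33) for Vangl2. The ratio of replicate 1 to replicate 2 was 2.04 for Vangl1 and 0.483 for Celsr1. Celsr2, looked up after its values were seen, was at 0.684 and 0.738 of the control in replicates 1 and 2 at 4 h (edgeR unadjusted p = 0.0264, adjusted p = 0.378).

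The genes most like Wnt3 in pattern were sought among 12377 genes with at least 50 counts in each kainic acid library. The measure was the Euclidean distance between the 4 log2 ratios to the control after adding 0.5 CPM. Wnt3 itself had 45 counts at 1 h and 28 at 8 h, so genes as low as Wnt3 there were not candidates. The nearest 5 were Nts, which encodes neurotensin, at a distance of 0.161, Ankrd33b at 0.399, Gm44680 at 0.436, Gm44679 at 0.475 and Lmo7 at 0.527. Nts had 5.28 CPM in the control, 8.99 at 1 h, 29.9 and 18.7 in replicates 1 and 2 at 4 h, and 6.33 at 8 h. Like Wnt3 it was highest in replicate 1 at 4 h and near the control at 8 h.

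The summed levels of the remaining marker lists varied less between libraries than those of the choroid plexus and thalamus, though single markers moved apart within these sums. Relative to the control, summed levels in the kainic acid libraries lay between 0.883 and 1.05 for 5 neuron markers, 0.819 and 1.05 for 4 pyramidal cell markers, and 0.868 and 1.22 for 4 dentate granule cell markers. Of the neuron markers, Gad1 was at 2.01 and 1.48 times the control in replicates 1 and 2 at 4 h and Rbfox3 at 0.688 and 0.692, and of the pyramidal markers Fibcd1 was at 0.523 and 0.698 at 4 h and Grik4 at 1.76 at 8 h. Among the dentate markers Prox1 was higher and C1ql2 and Dsp lower than the control by at least 1.5-fold in both 4 h libraries, with C1ql2 at 1.98 times the control at 8 h. The other dentate marker, Tdo2, was at 1.80 and 0.166 of the control in replicates 1 and 2 at 4 h and at 0.120 at 8 h. For 5 astrocyte markers the sums were between 1.07 and 1.53 times the control, with Gfap at least 1.5-fold higher at 4 h and 8 h and Gja1 at 0.507 of the control at 8 h. For 4 oligodendrocyte markers they were between 0.921 and 1.47. For 4 microglia markers they were between 0.805 and 1.01, for 4 endothelial markers between 0.807 and 1.03, and for 5 fibroblast and meninges markers between 0.592 and 0.883. Within these lists, P2ry12 of the microglia was at 0.436 and 0.558 of the control in replicates 1 and 2 at 4 h and at 0.652 at 8 h. Of the endothelial markers Slco1a4 was at 0.247 and 0.617 at 4 h, Flt1 at 1.75 and 0.959, and Pecam1 at 1.75 and 1.16, with Pecam1 at 1.997 at 8 h. Dcn and Lum were at least 1.5-fold lower at 1 h and 8 h, and Col1a1 was higher by that measure at 8 h. The part of these cell types in the values of the Wnt ligands was not tested.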

How the data were processed

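Total RNA libraries of mouse hippocampus were made with a stranded kit. According to the submitters' processing notes, reads were aligned with STAR 2.5.1b to GRCm38.p4 and counted with HTSeq, with version and strand setting not stated in any source used. The deposited values are counts per gene, not normalized by the authors. Reads on no gene (24.7% to 33.1% of a library), ambiguous and multiply aligned reads were left out.

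Counts were fitted with edgeR 4.0.16 in R 4.3.3 (filterByExpr, TMM scaling, quasi-likelihood test, prior count 2 for log2 fold changes) in 1 model of 5 libraries and 4 groups. The pair at 4 h gave the 1 residual degree of freedom. P-values were two-sided and adjusted by Benjamini-Hochberg over 19768 genes. DESeq2 1.42.0, limma 3.58.1 (voom), other scalings, filters and prior counts, and leaving out each 4 h replicate were alternatives. Scaling by library size alone moved the median log2 fold change at 4 h by -0.12 against TMM.

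Exon lengths and positions came from GENCODE M21 on GRCm38, which held 55144 of the 55385 gene identifiers. Ratios used normalized CPM. The floor was 3 counts, or 0.151 to 0.178 CPM. From each pathway list, genes past an adjusted p of 0.05 were named, or else up to 3 with the largest absolute log2 fold change at 4 h among those with at least 50 counts in 1 library. Neighbouring genes were chosen after their values were seen. The members and lists were chosen with earlier results of these data known. Python 3.11.15, pandas 2.3.3, scipy 1.17.1 and matplotlib 3.10.9 were used.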

Additional observations from a re-analysis of the deposited data

Results flagged for a closer look

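Reads that fell on no annotated gene were not used in any comparison, and their share was above that of the control (24.7%) in all 4 kainic acid libraries. It was 29.0% at 1 h, 33.1% and 25.3% in replicates 1 and 2 at 4 h, and 30.9% at 8 h. The replicates at 4 h differed more from each other than replicate 2 did from the control.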

How the results depend on the processing

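The number of genes called depended on the setting. At 1 h, where 0 were called, library size alone gave 57, DESeq2 50, a minimum of 10 counts per library 1 and no filter on low counts 285. At 4 h, where 1 was called, library size alone gave 237, no filter 1300 and DESeq2 234, while median-of-ratios size factors, at least 10 counts in every library and limma-voom gave 0. At 8 h, where 0 were called, library size alone gave 22, no filter 279 and DESeq2 33. The cause was not tested. With 2-fold in place of 1.5-fold, the ligands higher and lower were 0 and 0 at 1 h, 1 and 2 at 4 h, and 1 and 1 at 8 h. Leaving out 1 replicate at 4 h gave 1 to 2 ligands higher and 5 to 6 lower. For the other 79 pathway genes, those below the filter included, whose alternatives were chosen after seeing the data, 2-fold gave 3 higher and 4 lower at 1 h, 5 and 2 at 4 h, and 3 and 10 at 8 h. Leaving out 1 replicate at 4 h gave 11 to 17 higher and 12 to 18 lower. A higher fold threshold can only lower these counts, and a rule over 1 library in place of 2 can only raise them. No share of all genes was taken at 2-fold or with genes below the filter. The 2-fold counts and those of the 79 genes therefore have no background beside them. The log2 fold change of Wnt3 at 4 h lay between 2.05 and 2.73 over all alternatives. Of 207 recomputed values for the ligands, 205 kept their direction and side of the threshold or moved by less than the spread of the 4 h pair. The other 2 were labelled apart from these. Wnt7b at 4 h with library size alone (-1.03) also kept its direction and stayed beyond 1.5-fold. Wnt2 at 8 h with no filter (1.70, adjusted p = 0.0378) passed the threshold. Of 81 ligand values at 4 h, 77 kept their sign. It turned for Wnt2 with library size alone (-0.0036) and without replicate 2 (-0.39), and without replicate 1 for Wnt5b (0.31) and Wnt10a (-0.30). Among the 29 other genes put through the alternatives, leaving out 1 replicate turned the sign at 4 h for Wls, Lrp5, Lgr5, Lef1 and Nsf. Named genes outside these 29 were not put through them. Of those, Lgr6, Wnt16, Tdo2, Flt1 and Ttr, among others, had 1 replicate at 4 h whose ratio to the control had the opposite sign to the fitted value. Near 0, the sign also turned with library size alone for Wls at 4 h (-0.10), Tcf7l2 (-0.065) and Gosr2 (-0.013) at 1 h, and Nsf at 8 h (0.0083), and for Nsf at 8 h also with at least 10 counts in every library (0.014). With no filter, Wnt9b, Sostdc1, Apc2, Tcf7l2, Myc and Arf2 passed the threshold at 4 h, and Apc2 also passed with library size alone. Tests of calls without a 4 h replicate were not run, since no residual degree of freedom would remain. No paired analysis was possible because only the 4 h group has more than 1 library. Depth limits Wnt2b and 5 of the other ligands, which did not pass the filter.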
